A study of Mus musculus with 9 samples.

Results

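The vascular endothelial growth factor (VEGF) family was followed in cells of 1 mouse pancreatic cancer line with and without an edit of Zdhhc20, the gene of an enzyme that attaches palmitate to proteins. The genes described are 8 of the 54838 in the deposited table: the ligands Pgf, Vegfa, Vegfb and Vegfc and the receptors Flt1, Kdr, Nrp1 and Nrp2. They were taken by name, and the family was chosen by the CPM values of Pgf, which were higher in both clones than in the parental line, so the values of Pgf against the parental line are given here as a description without a test. The line, PDA530 Met, was derived from a KPC mouse (male, metastasis to the liver), a genetic model of pancreatic ductal adenocarcinoma, on a mixed 129/SvJae/C57Bl/6 background. The design text writes PDA50 Met for the parental line, and both names are taken here as 1 line. All groups were cultured in DMEM with L-glutamine, 10% serum and antibiotics and received no treatment. The knockout group is clone E4, edited in Zdhhc20 with CRISPR/Cas9. The control group is clone C5, which went through nucleofection with the same guide RNAs, stayed unedited and expresses Zdhhc20. The parental group is the uncloned line. Each group has 3 libraries. Those of the knockout and control groups come from 1 single-cell clone each, so an edit and the particular clone cannot be told apart, and p-values measure the spread between cultures of a clone and not between clones.

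VEGF ligands are secreted dimers best known for driving the growth of blood and lymphatic vessels. VEGFA binds the receptor tyrosine kinases FLT1 and KDR, VEGFB and PGF bind FLT1 alone of these, and VEGFC acts mainly through FLT4 and KDR in lymphatic endothelium. NRP1 and NRP2 are neuropilins, co-receptors with short cytoplasmic tails that hold VEGF ligands as well as class 3 semaphorins. Pancreatic carcinoma cells commonly secrete VEGFA and can carry neuropilins, while KDR is mainly a receptor of endothelial cells.

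Library depth was 16525869 to 23192701 counts, and values are given in CPM, the usual scale of counts relative to library size, here also scaled for composition. Zdhhc20, the targeted gene, averaged 37.95 ± 4.34 CPM in the E4 knockout, 109.7 ± 20.7 CPM in the C5 control and 82.4 ± 7.74 CPM in the parental line (SD, n = 3), lower in the E4 knockout against both others (edgeR adjusted p 6.97e-05 and 0.000585). The 8 listed ductal epithelial genes all passed the filter on low counts. Their summed level was 4343 to 4474 CPM in the E4 knockout, 7038 to 9406 CPM in the C5 control and 6734 to 8206 CPM in the parental line, and Epcam stayed at or below 0.635 CPM in every library. In the E4 knockout 1 was called higher and 5 lower against the C5 control, and likewise against the parental line. In the C5 control against the parental line 1 was called in each direction. These are 75%, 75% and 25% of the 8, beside 42.9%, 31.4% and 21.4% of all tested genes. Of 10 endothelial markers 1 passed the filter, Emcn, Cldn5, Erg and Sox17 had no count in any library, and the summed level was at most 1.49 CPM. Fibroblast and leukocyte markers passed in 1 of 8 and 1 of 6 cases, with summed levels of at most 3.998 and 2.79 CPM, and trophoblast markers in 0 of 4. In the E4 knockout against the parental line, Esam (endothelial) and Pdgfra (fibroblast) were called lower and Cd68 (leukocyte) was not called. Against the C5 control, Pdgfra and Cd68 were called lower there and Esam was not called. None of these markers was called in the C5 control against the parental line. The control libraries were the most unlike each other, with a median SD of log2 CPM per gene of 0.203 against 0.0753 in the E4 knockout and 0.0839 in the parental line. Control replicate 2 stood apart from the other control libraries in several members. It was the highest of them for Pgf and Nrp1 and the lowest for Vegfb and Flt1. In bulk RNA, fewer cells that make a transcript and less of it per cell cannot be told apart.

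The promoters of Pgf and of the 3 members that differed most between the clones, Flt1, Nrp2 and Vegfc, are printed so that the gene behind each result has its upstream sequence beside it. Each is the 250 bases before the start of transcription in RefSeq (GRCm38.p6), 5′ to 3′ on the gene's own strand. They lie at chr12:85177314-85177563 (minus strand, Pgf), chr5:147726012-147726261 (minus, Flt1), chr1:62703067-62703316 (plus, Nrp2) and chr8:54077282-54077531 (plus, Vegfc). All 8 members were found in the promoter table. Capitals mark matches, on either strand, to motifs chosen after the data were seen: the hypoxia response core (ACGTG or GCGTG), the cyclic AMP response element (TGACGTCA), the Sp1 GC box (GGGCGG) and the ETS core (GGAAGT).
Pgf: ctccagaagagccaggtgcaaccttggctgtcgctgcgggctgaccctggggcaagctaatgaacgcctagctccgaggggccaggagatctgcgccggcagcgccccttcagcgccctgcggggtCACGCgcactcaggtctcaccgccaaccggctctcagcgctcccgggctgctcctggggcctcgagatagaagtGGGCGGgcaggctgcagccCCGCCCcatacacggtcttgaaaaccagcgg
Flt1: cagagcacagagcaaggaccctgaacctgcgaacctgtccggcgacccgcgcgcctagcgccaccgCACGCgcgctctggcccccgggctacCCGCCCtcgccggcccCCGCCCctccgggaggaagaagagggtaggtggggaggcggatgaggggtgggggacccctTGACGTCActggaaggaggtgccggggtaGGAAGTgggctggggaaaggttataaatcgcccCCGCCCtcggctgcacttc
Nrp2: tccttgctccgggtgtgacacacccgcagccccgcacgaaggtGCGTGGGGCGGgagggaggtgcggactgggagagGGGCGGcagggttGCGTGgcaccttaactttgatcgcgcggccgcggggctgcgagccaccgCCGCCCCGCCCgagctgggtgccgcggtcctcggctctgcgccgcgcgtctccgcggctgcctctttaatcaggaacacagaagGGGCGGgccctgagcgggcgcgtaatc
Vegfc: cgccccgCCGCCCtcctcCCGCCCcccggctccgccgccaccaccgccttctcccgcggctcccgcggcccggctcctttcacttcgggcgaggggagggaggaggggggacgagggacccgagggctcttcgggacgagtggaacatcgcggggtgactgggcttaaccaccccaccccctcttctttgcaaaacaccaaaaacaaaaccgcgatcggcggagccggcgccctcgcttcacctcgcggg
RefSeq gives Pgf another start as well, and its window, chr12:85175983-85176232, held none of these motifs. The Pgf window printed here held 1 hypoxia core and 2 GC boxes, that of Flt1 1 hypoxia core, 3 GC boxes, 1 cyclic AMP element and 1 ETS core, that of Nrp2 2 hypoxia cores and 5 GC boxes, and that of Vegfc 2 GC boxes. Among 32851 such windows of the mouse genome, 38.6% held the hypoxia core, 32.7% the GC box, 19.7% the ETS core and 1.55% the cyclic AMP element. The AP-1 motif (TGANTCA), the Egr1 motif (GCGTGGGCG, which contains a hypoxia core), the TEAD motif (GGAATG) and the metal response core (TGCACNC or TGCGCNC) were searched as well and are not in these 4 windows. A match is a description of the letters and not a site of binding.

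Pgf encodes placental growth factor, a ligand of FLT1 that is made mainly by trophoblast and by some tumours. The gene (ENSMUSG00000004791) lies on the minus strand at chr12:85166635-85177790 in GRCm38 and overlaps no other annotated gene. Its RNA was at 26.5, 23.5 and 25.3 CPM in the E4 knockout, at 7.59, 28.0 and 11.97 CPM in the C5 control and at 4.43, 3.95 and 1.77 CPM in the parental line. Every library of either clone was above every parental library, the difference that the choice of the family used. The knockout libraries lay close together, while control replicate 2 was above all 3 of them and the other control libraries were below. The ratio of means to the parental line was 7.43 for the E4 knockout (log2 fold change 2.88, SE 0.47) and 4.68 for the C5 control (2.20, SE 0.47). Leaving out control replicate 2 gave a log2 fold change of 1.504 for the C5 control. Between the clones, which the rule did not compare, Pgf averaged 25.1 ± 1.48 CPM against 15.8 ± 10.7 CPM (SD, n = 3), the groups overlapped, and the log2 fold change of 0.68 (SE 0.42) was not called (edgeR adjusted p 0.221). Without control replicate 2 it was 1.37 and called (adjusted p 0.0022). With any other library left out it was 0.336 to 0.74 and not called (adjusted p 0.183 to 0.524).

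**Figure D1:**
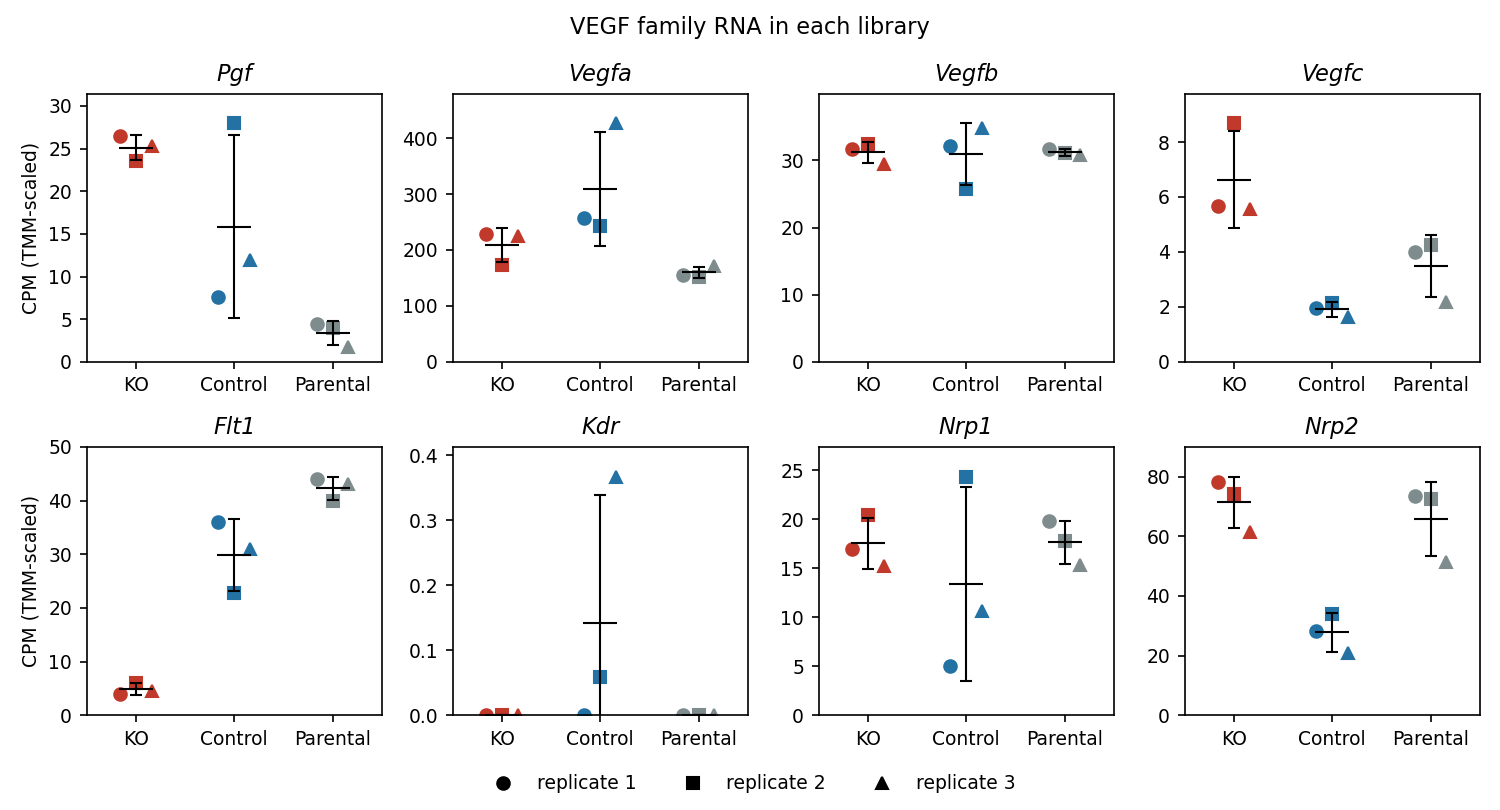
RNA level of the 8 VEGF family genes in CPM (vertical axis, from 0, with its own scale in each panel) in the E4 knockout (KO), the C5 control and the parental line. Points are libraries with a shape for each replicate number, and bars are the mean and SD over 3 libraries. Flt1 sits low in the E4 knockout, Nrp2 and Vegfc sit low in the C5 control, and control replicate 2 (square) is the highest library for Pgf and Nrp1.

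The genes around Pgf were compared with it. Of the 5 tested genes on either side, 0 were higher and 3 lower in the E4 knockout than in the C5 control, with log2 fold changes from -1.57 to 0.33. Against the parental line 5 were higher and 1 lower in the E4 knockout, from -0.72 to 0.49. In the C5 control 4 were higher and 0 lower than in the parental line, from -0.0047 to 1.05. Of all tested genes, 42.9%, 31.4% and 21.4% were called in these comparisons. Dlst, the nearest tested gene on one side and a subunit of a mitochondrial dehydrogenase complex, averaged 158 CPM in the E4 knockout, 172 CPM in the C5 control and 129 CPM in the parental line. Its log2 fold change against the parental line was 0.29 (edgeR adjusted p 0.0135) in the E4 knockout and 0.42 (adjusted p 0.00415) in the C5 control. Eif2b2, the nearest on the other side and a subunit of a translation initiation factor, was 0.49 higher in the E4 knockout than in the parental line (adjusted p 0.0235) and 0.17 higher in the C5 control (adjusted p 0.428, not called). Over the 466 tested genes of chromosome 12, the median log2 fold change was 0.29 in the C5 control against the parental line, with 17.4% of them lower, beside a median of 0.01 over all tested genes. In the E4 knockout against the parental line the chromosome's median was 0.02, and between the clones it was -0.25. The part of this shift in the Pgf difference was not tested.

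**Figure D2:**
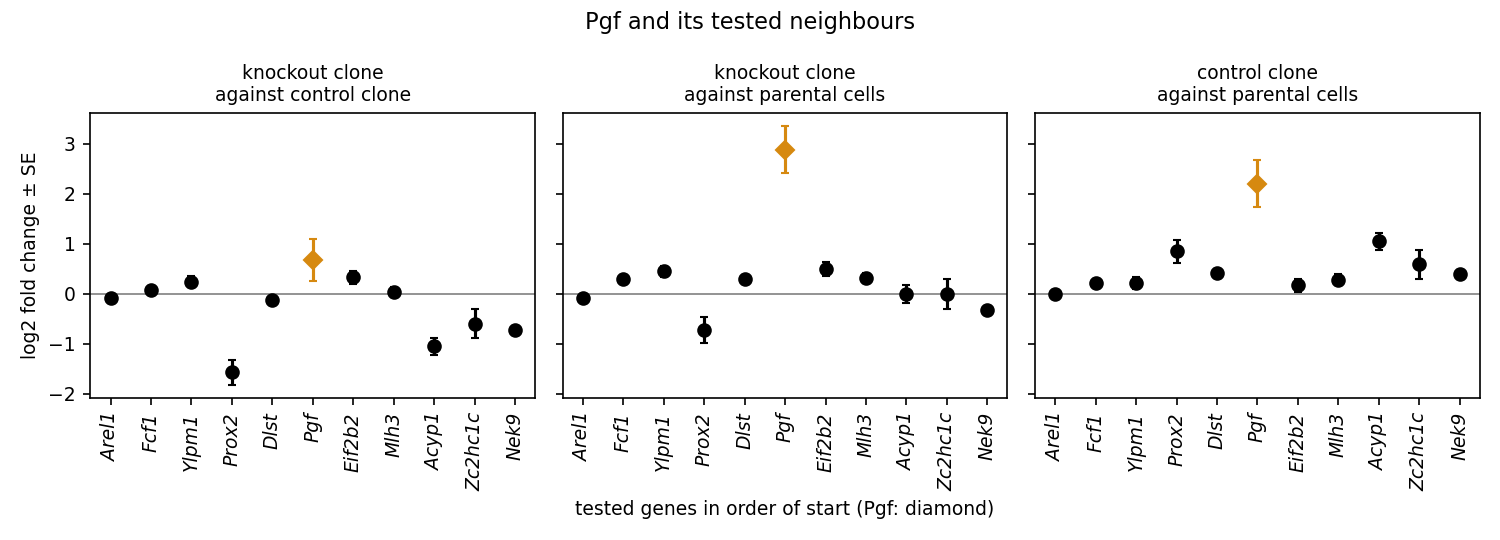
Log2 fold change with its SE (vertical axis) of Pgf (diamond) and of its 5 tested neighbours to the left and to the right, in order of their starts along chromosome 12 (horizontal axis), in the 3 comparisons. Pgf is at 2.88 and 2.20 against the parental line, the difference used to choose the family. Its neighbours range there from -0.72 to 0.49 and from -0.0047 to 1.05. Between the clones, which the rule did not compare, Pgf is at 0.68 (not called) and its neighbours range from -1.57 to 0.33.

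Vegfa, the main angiogenic ligand, was the most abundant member in every group. The gene (ENSMUSG00000023951, chr17:46016993-46032369, minus strand) overlaps no other gene. Vegfa was at 229, 173 and 224 CPM in the E4 knockout, at 258, 242 and 426 CPM in the C5 control and at 156, 152 and 172 CPM in the parental line. No groups overlapped: the control libraries were highest, led by replicate 3, and the parental libraries lowest. Vegfa rose 1.93-fold by means in the C5 control against the parental line (log2 fold change 0.95, SE 0.20, edgeR adjusted p 0.0109), a call lost without parental replicate 1 (adjusted p 0.0502) or parental replicate 2 (adjusted p 0.0513). It was lower in the E4 knockout than in the C5 control by a log2 fold change of -0.56 (SE 0.20, adjusted p 0.0476). That call was lost in 7 of the 9 fits without 1 library, among them the one without control replicate 3, where the value was -0.26 (adjusted p 0.0975), and also with DESeq2 size factors (adjusted p 0.0501), total counts (adjusted p 0.0552), limma voom (adjusted p 0.0579) and only the groups compared (adjusted p 0.106). Against the parental line the E4 knockout was at 0.39 (SE 0.20, adjusted p 0.175), not called, although it was called in a fit of those groups alone (adjusted p 0.0074) and without control replicate 3 (adjusted p 0.0166). Over the 687 tested genes of chromosome 17, the median was 0.14 between the clones, 0.21 in the E4 knockout and 0.06 in the C5 control against the parental line, with 38.9%, 29.1% and 43.7% of them lower. The part of this in the Vegfa values was not tested.

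Vegfb, a ligand of FLT1 linked mainly to metabolism and cell survival, stayed between 25.8 and 34.8 CPM in all libraries. The gene (ENSMUSG00000024962, chr19:6982473-6987651, minus strand) overlaps no other gene. It was at 31.6, 32.4 and 29.5 CPM in the E4 knockout, at 32.1, 25.8 and 34.8 CPM in the C5 control and at 31.7, 31.1 and 30.8 CPM in the parental line, so all groups overlapped. Its log2 fold change was 0.01 between the clones (SE 0.11, edgeR adjusted p 0.942) and -0.01 in the C5 control against the parental line (SE 0.11, adjusted p 0.952). The medians of the 462 tested genes of chromosome 19 were 0.18 between the clones, 0.02 in the E4 knockout and -0.15 in the C5 control against the parental line. For Vegfb the mean of 31.2 CPM was the same to 3 digits in the E4 knockout and the parental line.

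Vegfc, the lymphatic ligand, was low in every group and highest in the E4 knockout. The gene (ENSMUSG00000031520, chr8:54077606-54187096, plus strand) overlaps no other gene. Vegfc was at 5.66, 8.68 and 5.55 CPM in the E4 knockout, at 1.96, 2.14 and 1.63 CPM in the C5 control and at 3.998, 4.24 and 2.18 CPM in the parental line. The 3 groups did not overlap, although parental replicate 3 lay just above the highest control library. Vegfc rose 3.47-fold by means in the E4 knockout against the C5 control (log2 fold change 1.79, SE 0.29, edgeR adjusted p 0.00108), and this call held under every alternative tried that kept the gene. Against the parental line it was higher by 0.93 (SE 0.28, adjusted p 0.0307). This call ended when the fit left out knockout replicate 1 (adjusted p 0.0523), knockout replicate 2 (0.68, adjusted p 0.12), parental replicate 1 (adjusted p 0.0515) or parental replicate 3 (adjusted p 0.09). The C5 control was at -0.86 against the parental line (SE 0.30, adjusted p 0.066), not called. This difference was called with DESeq2 (adjusted p 0.0396), with no low-count filter (adjusted p 0.0466), with the replicate number as a block (adjusted p 0.0382) and without parental replicate 3 (adjusted p 0.025).

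Flt1 encodes a high-affinity receptor of VEGFA, VEGFB and PGF with weak kinase activity, which also exists as a soluble form that captures ligand. Its RNA was at 3.86, 6.06 and 4.56 CPM in the E4 knockout, at 36.0, 22.7 and 30.9 CPM in the C5 control and at 44.0, 39.8 and 43.1 CPM in the parental line. The gene (ENSMUSG00000029648, chr5:147561604-147726011, minus strand) overlaps no other gene. The groups did not overlap, and the highest knockout library was far below the lowest of any other group. Flt1 fell in the E4 knockout by means 6.19-fold against the C5 control (log2 fold change -2.64, SE 0.20, edgeR adjusted p 2.1e-05) and 8.76-fold against the parental line (-3.13, SE 0.20, adjusted p 1.69e-05). Both calls held under every alternative tried, with values from -2.82 to -2.48 and from -3.33 to -2.99 when 1 library was left out. The C5 control was at -0.50 against the parental line (SE 0.18, adjusted p 0.0764), not called, but called with DESeq2 (adjusted p 0.0473), with limma voom (adjusted p 0.0466), with no low-count filter (adjusted p 0.0403) and without control replicate 1 (adjusted p 0.0473). Counts per gene do not separate the soluble from the membrane form.

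Kdr, the main signalling receptor of VEGFA, was nearly without counts. It had 0 counts in all knockout and parental libraries and 0, 1 and 7 counts in the control libraries, and the filter removed it from the tests. The gene (ENSMUSG00000062960, chr5:75932827-75978458, minus strand) overlaps no other gene. A count of 0 allows up to 3 counts, which is 0.131 to 0.177 CPM in the libraries without a count. This limit covers counting error only.

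Nrp1, the neuropilin that pairs with KDR and with plexins for semaphorin 3A, was at 16.99, 20.4 and 15.2 CPM in the E4 knockout, at 5.06, 24.3 and 10.7 CPM in the C5 control and at 19.7, 17.7 and 15.4 CPM in the parental line. The knockout and parental libraries covered the same range, and the C5 control held both the highest and the lowest libraries of all. The gene (ENSMUSG00000025810, chr8:128358604-128503363, plus strand) shares 80 exon bases with the microRNA gene Mir1903. Nrp1 was not called in any comparison, with log2 fold changes of 0.41 between the clones (SE 0.43, edgeR adjusted p 0.474), -0.0079 in the E4 knockout against the parental line (SE 0.43, adjusted p 0.992) and -0.42 in the C5 control against them (SE 0.43, adjusted p 0.531). Without control replicate 2 it was higher in the E4 knockout than in the C5 control (1.18, adjusted p 0.0045) and lower in the C5 control than in the parental line (-1.18, adjusted p 0.01). With any other library left out, neither was called. These values were then 0.0086 to 0.50 between the clones and -0.53 to -0.016 in the C5 control against the parental line.

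Nrp2, the neuropilin that binds VEGFC and semaphorin 3F, was at 78.2, 74.3 and 61.6 CPM in the E4 knockout, at 28.4, 33.9 and 20.9 CPM in the C5 control and at 73.6, 72.5 and 51.5 CPM in the parental line. All 3 control libraries were below every other library, and the knockout and parental libraries overlapped. The gene (ENSMUSG00000025969, chr1:62703285-62818695, plus strand) overlaps Gm29083 and Gm37121 without sharing exon bases. Nrp2 was 2.57-fold higher by means in the E4 knockout than in the C5 control (log2 fold change 1.36, SE 0.19, edgeR adjusted p 0.000523) and lower in the C5 control than in the parental line (-1.25, SE 0.19, adjusted p 0.00248). Both calls held under every alternative tried. The E4 knockout was at 0.12 against the parental line (SE 0.19, adjusted p 0.677). Over the 762 tested genes of chromosome 1, the median log2 fold change was -0.17 in the C5 control against the parental line, with 73.2% of them lower, -0.14 in the E4 knockout against the parental line, with 64.0% lower, and 0.04 between the clones. The part of this in the Nrp2 difference was not tested.

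Counted together, 4 of the 7 tested members were called between the clones, 2 higher in the E4 knockout (Vegfc and Nrp2) and 2 lower (Flt1 and Vegfa), beside 42.9% of all tested genes (18.7% higher and 24.2% lower). Without control replicate 2, 6 were called, while the number over all genes rose from 5643 to 7204. In 7 of the other 8 fits without 1 library, 3 members were called, as with DESeq2 size factors, total counts, limma voom, a filter at a mean of 5 CPM, only the groups compared or a log2 fold change of at least 1 in size. The number over all genes fell to 4301 at the lowest with 1 library left out. Against the parental line, leaving out Pgf, 2 of 6 were called in the E4 knockout (Vegfc higher, Flt1 lower), beside 31.4% of all tested genes (13.1% higher and 18.3% lower). The number was 1 without knockout replicate 1, knockout replicate 2, parental replicate 1 or parental replicate 3. In the C5 control 2 of 6 were called (Vegfa higher, Nrp2 lower), beside 21.4% of all tested genes (10.4% higher and 11% lower), and 1 without parental replicate 1 or parental replicate 2. With so few members these shares cannot be set apart from the background. The median log2 fold change of the tested members was 0.41, 0.06 and -0.46 in the 3 comparisons, beside -0.02, -0.01 and 0.01 over all tested genes. The 3 comparisons share libraries in pairs, so their values are not independent of each other.

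**Figure D3:**
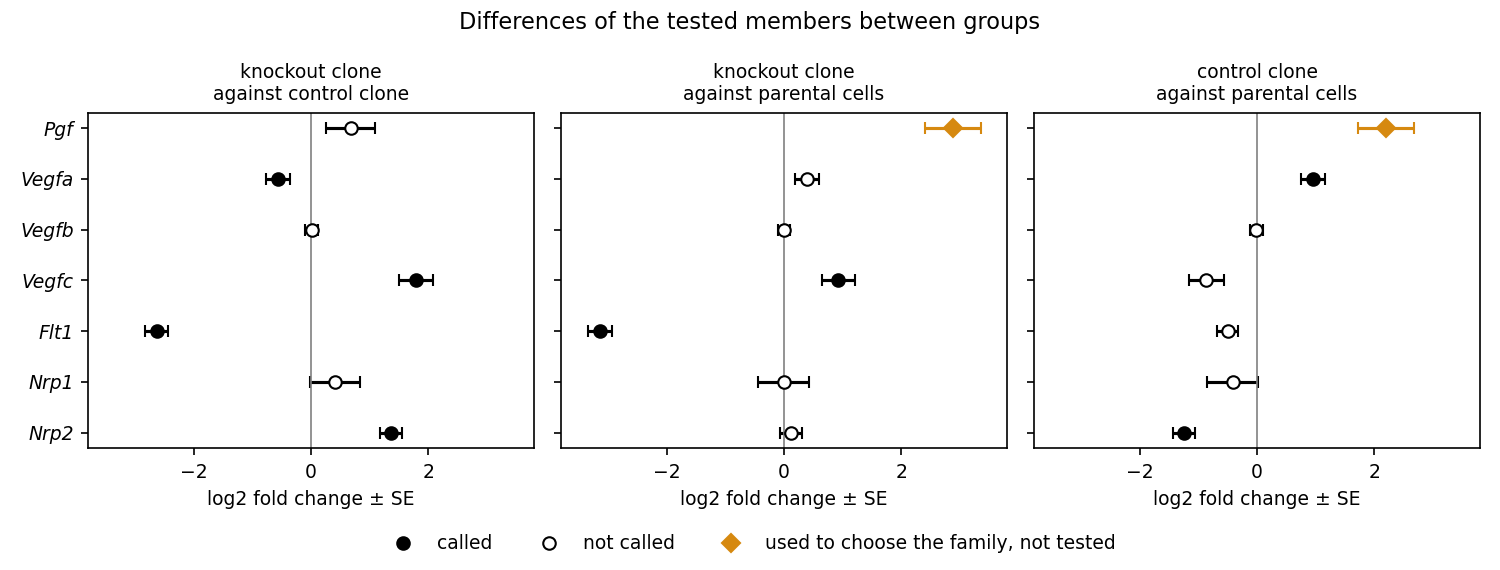
Log2 fold change with its SE (horizontal axis) of the 7 tested VEGF family genes in each comparison. Filled points were called, open points were not, and diamonds mark Pgf against the parental line, which was used to choose the family. Flt1 lies at -2.64 and -3.13 in both comparisons of the E4 knockout and at -0.50 in the C5 control against the parental line.

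Levels were set against each other per kilobase of annotated exon. In the E4 knockout the order of means was Vegfa at 48.8, Vegfb at 19.4, Pgf at 8.65, Nrp2 at 6.03, Vegfc at 2.71, Nrp1 at 1.79 and Flt1 at 0.357 CPM per kilobase, and no neighbours in this order overlapped. In the parental line it was Vegfa at 37.3, Vegfb at 19.4, Nrp2 at 5.56, Flt1 at 3.13, Nrp1 at 1.80, Vegfc at 1.42 and Pgf at 1.16 CPM per kilobase, where Nrp1 overlapped Vegfc and Vegfc overlapped Pgf. Pgf was thus the lowest of the tested members in the parental line and the third in both clones. In the C5 control Vegfa was at 72.1, Vegfb at 19.3, Pgf at 5.46, Nrp2 at 2.34, Flt1 at 2.21, Nrp1 at 1.36 and Vegfc at 0.780 CPM per kilobase, and each neighbour from Pgf down overlapped the next. Dividing by the longest transcript in place of all exons exchanged Nrp2 and Flt1 in the C5 control, Vegfc and Nrp1 in the E4 knockout and Vegfc and Pgf in the parental line.

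Among the 5 ligands of the family (Vegfd included) Pgf made up 10.7%, 11.2% and 10.6% of the RNA per length in the knockout libraries, 3.11%, 11.5% and 3.26% in the control libraries and 2.52%, 2.30% and 0.984% in the parental libraries. Control replicate 2 lay with the knockout libraries. Vegfa accounted for 60.8 ± 4.48% in the E4 knockout, 72.6 ± 5.503% in the C5 control and 61.6 ± 2.80% in the parental line, and Vegfb for 24.5 ± 2.93%, 20.1 ± 3.41% and 32.2 ± 0.966% (SD, n = 3). The ratio of Vegfa to Pgf was 4.99 to 5.99 in the knockout libraries, 5.88 to 24.1 in the control libraries and 23.8 to 65.9 in the parental libraries. The summed ligand level was 79.9 ± 6.49, 98.1 ± 24.7 and 60.5 ± 1.31 CPM per kilobase in these groups. The shares of Pgf follow in part from the difference used to choose the family and were not tested.

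**Figure D4:**
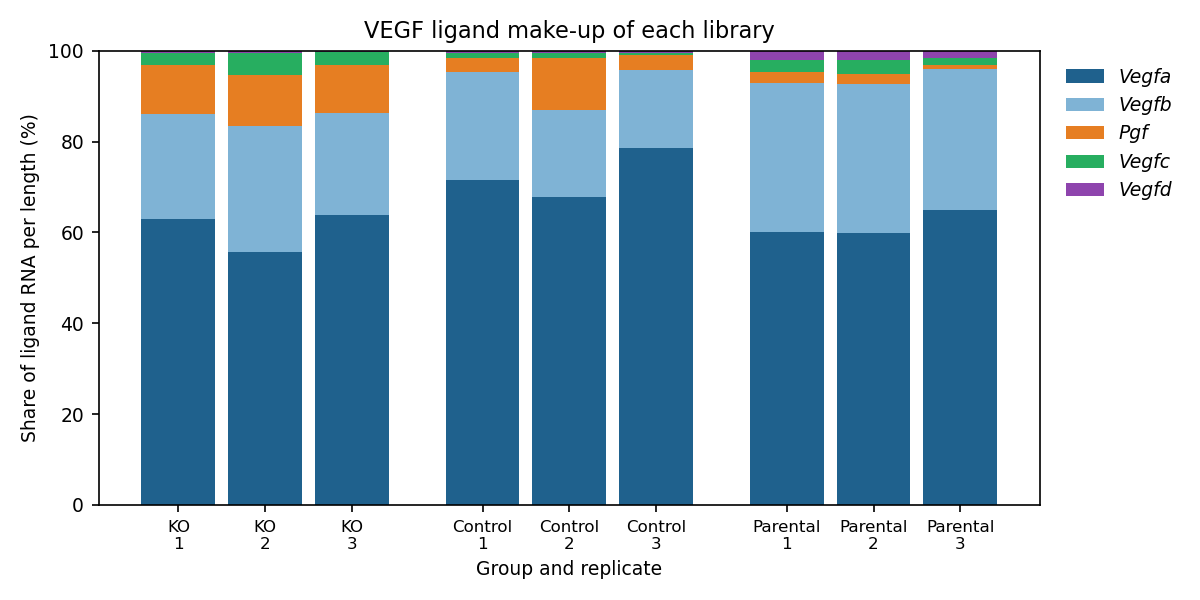
Share of each VEGF ligand in the summed ligand RNA per exon length (vertical axis, %) in each of the 9 libraries. Pgf takes 10.6% to 11.2% in the knockout libraries, 3.11% to 11.5% in the control libraries and 0.984% to 2.52% in the parental libraries.

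Vegfd and Flt4 complete the family. Vegfd, a lymphatic ligand related to Vegfc, was at 0.977, 0.835 and 0.701 CPM in the E4 knockout, at 1.18, 0.892 and 1.57 CPM in the C5 control and at 2.84, 3.01 and 2.47 CPM in the parental line. All 6 libraries of the clones were below every parental library. It was lower than in the parental line in the E4 knockout (log2 fold change -1.71, SE 0.27, edgeR adjusted p 0.0015) and in the C5 control (-1.18, SE 0.26, adjusted p 0.0125), and was not called between the clones (-0.53, adjusted p 0.157). Flt4, the receptor of VEGFC and VEGFD, was at 27.8, 27.9 and 24.1 CPM in the E4 knockout, at 29.6, 55.4 and 23.7 CPM in the C5 control and at 35.5, 31.9 and 26.0 CPM in the parental line. The groups overlapped, control replicate 2 was highest, and no comparison was called.

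Class 3 semaphorins compete with VEGF ligands for neuropilins and signal through plexins. Of 12 listed genes 10 were tested, and 3 were higher and 6 lower in the E4 knockout than in the C5 control. Against the parental line the counts were 4 higher and 3 lower in the E4 knockout, and 4 higher and 1 lower in the C5 control. Of the 10 tested genes 90%, 70% and 50% were called, beside 42.9%, 31.4% and 21.4% of all tested genes. Sema3f, the ligand of NRP2, was at 0.0977, 0.0556 and 0.175 CPM in the E4 knockout, at 2.84, 1.61 and 4.62 CPM in the C5 control and at 3.71, 3.54 and 5.53 CPM in the parental line. The E4 knockout held 6 counts of it in all, and it was lower there against both others (log2 fold changes -4.73 and -5.21, edgeR adjusted p 0.000198 and 0.000175). Sema3a, the ligand of NRP1, averaged 50.6 ± 8.61 CPM in the E4 knockout, 16.02 ± 7.20 CPM in the C5 control and 18.7 ± 2.83 CPM in the parental line, higher in the E4 knockout against both (1.67 and 1.44, adjusted p 0.00115 and 0.00367). The plexins Plxna3 and Plxna1 were 1.18 and 0.65 higher in the C5 control than in the parental line (adjusted p 0.000818 and 0.00152).

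Release and processing of the ligands involved 16 listed genes, of which 10 were tested. Between the clones 4 were higher and 3 lower in the E4 knockout, against the parental line likewise 4 and 3, and in the C5 control against the parental line 0 were higher and 1 lower. This is 70%, 70% and 10% of the 10 tested genes on the list, where all tested genes gave 42.9%, 31.4% and 21.4%. Ccbe1, a cofactor for the cleavage of VEGFC, was at 134, 120.3 and 126 CPM in the E4 knockout and at 3.84, 21.6 and 5.98 CPM in the C5 control (log2 fold change 3.63, SE 0.60, edgeR adjusted p 0.00115). In the parental line Ccbe1 was at 26.2, 21.7 and 8.41 CPM. Thbs1, an inhibitor of angiogenesis that binds VEGFA, was at 234, 226 and 229 CPM in the E4 knockout and at 40.1, 27.2 and 18.8 CPM in the parental line (3.00, SE 0.77, adjusted p 0.0165). In the C5 control Thbs1 was at 17.3, 168.6 and 22.1 CPM, with replicate 2 again nearest to the knockout libraries. Hpse, a heparanase that frees matrix-bound growth factors, was lower in the E4 knockout than in the C5 control (-4.43, adjusted p 0.000662) and the parental line (-4.07, adjusted p 0.00174). Adamts1, a protease that can bind VEGFA, was lower in the C5 control than in the parental line (-1.10, adjusted p 0.00667).

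Oxygen sensing genes and transcription factors known to act on Vegfa or Pgf formed a list of 20, of which 17 were tested. The counts of higher and lower genes were 5 and 3 between the clones, 3 and 2 in the E4 knockout against the parental line, and 3 and 4 in the C5 control against the parental line. The called shares of the 17 tested genes, 47.1%, 29.4% and 41.2%, compare with 42.9%, 31.4% and 21.4% of all tested genes. Epas1, the hypoxia-inducible factor HIF-2 alpha, averaged 0.174 ± 0.103 CPM in the E4 knockout, 4.44 ± 3.22 CPM in the C5 control and 3.24 ± 0.817 CPM in the parental line, lower in the E4 knockout against both (log2 fold changes -4.59 and -4.13, edgeR adjusted p 0.000539 and 0.00161). Egr1, an immediate early factor, was at 162, 126 and 149 CPM in the E4 knockout, at 3.49, 3.87 and 5.46 CPM in the C5 control and at 230.3, 232 and 269 CPM in the parental line. It was lowest in the C5 control, at -5.84 against the parental line (adjusted p 7.04e-07), and 5.09 higher in the E4 knockout than there (adjusted p 3.38e-07). Jun, a subunit of AP-1, was 1.24 higher in the E4 knockout than in the parental line (adjusted p 4.8e-05) and at -1.50 in the C5 control against them (adjusted p 5.05e-05).

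Hypoxia-inducible genes were measured because Vegfa itself responds to low oxygen. Of 10 listed genes 9 were tested, with 0 higher and 2 lower in the E4 knockout than in the C5 control, 1 higher and 1 lower in the E4 knockout against the parental line, and 0 called in the C5 control against the parental line. The called shares of these 9 genes, 22.2%, 22.2% and 0%, lie below the 42.9%, 31.4% and 21.4% of all tested genes. The median log2 fold changes of its tested genes were -1.002, -0.53 and 0.33 in these comparisons. Higd1a, a mitochondrial protein, was lower in the E4 knockout against the C5 control (-0.62, edgeR adjusted p 0.00846) and the parental line (-0.53, adjusted p 0.0236), the glucose transporter gene Slc2a1 was lower against the C5 control (-0.40, adjusted p 0.0458), and the glycolytic regulator Pfkfb3 was higher against the parental line (1.05, adjusted p 0.0394). The summed level of the list was 337, 311 and 359 CPM in the E4 knockout, 627, 293 and 936 CPM in the C5 control and 453, 503 and 683 CPM in the parental line. Control replicate 3, which had the highest Vegfa, had the highest sum, and control replicate 2, which had the highest Pgf, had the lowest. The part of these differences between cultures in the Vegfa and Pgf values was not tested.

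**Figure D5:**
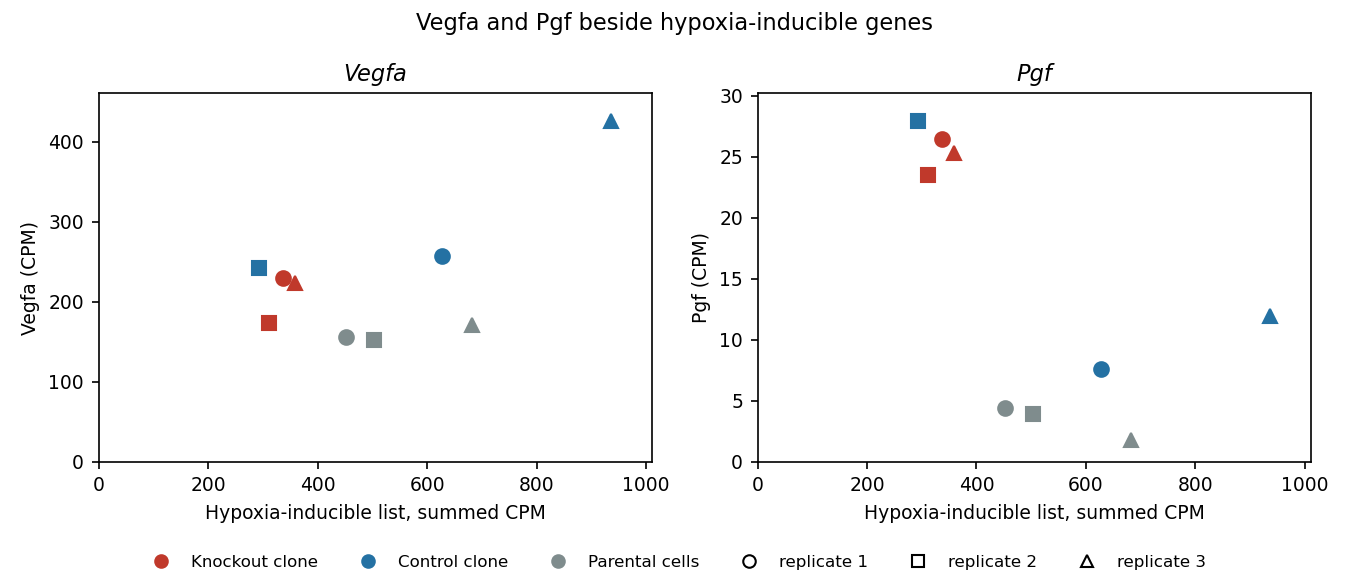
Vegfa (left) and Pgf (right) in CPM on the vertical axis against the summed CPM of the 10 hypoxia-inducible genes on the horizontal axis, 1 point per library, coloured by group and shaped by replicate number. Control replicate 2 has the lowest sum, 293 CPM, just below the knockout libraries at 311 to 359 CPM, and control replicate 3 lies at 936 summed CPM with 426 CPM of Vegfa.

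Signalling proteins downstream of the VEGF receptors were called about as often as genes in general. Of 40 listed genes 35 were tested, with 9 higher and 5 lower between the clones, 3 higher and 7 lower in the E4 knockout against the parental line, and 1 higher and 6 lower in the C5 control against the parental line. These are 40%, 28.6% and 20% of the tested genes on the list, beside 42.9%, 31.4% and 21.4% of all tested genes. Hspb1, a small heat shock protein phosphorylated on VEGF signalling, averaged 39.6 ± 3.65 CPM in the E4 knockout, 13.6 ± 7.49 CPM in the C5 control and 18.2 ± 1.10 CPM in the parental line, higher in the E4 knockout against both (log2 fold changes 1.54 and 1.12, edgeR adjusted p 0.00279 and 0.0173). The kinase gene Map2k1 was lower there against both (-0.63 and -0.64, adjusted p 0.00167 and 0.00244). Plcg1 and Pik3r1 were lower in the C5 control than in the parental line (-0.58 and -0.47, adjusted p 0.0246 and 0.0308).

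Among other angiogenic ligands, Fgf1 and Fgf2 fell in the E4 knockout. Of 16 listed genes 11 were tested, with 2 higher and 4 lower between the clones, 1 higher and 4 lower in the E4 knockout against the parental line, and 1 in each direction in the C5 control against the parental line. Called genes were 54.5%, 45.5% and 18.2% of these 11, beside 42.9%, 31.4% and 21.4% of all tested genes. Fgf2 was at 0.293, 0.111 and 0.584 CPM in the E4 knockout, at 32.3, 8.57 and 52.4 CPM in the C5 control and at 9.73, 12.8 and 14.9 CPM in the parental line. Fgf1 averaged 6.85 ± 2.58, 72.3 ± 32.2 and 79.3 ± 22.3 CPM in these groups. Both fibroblast growth factors, which stimulate endothelial growth, were lower in the E4 knockout, Fgf2 by log2 fold changes of -6.56 and -5.24 (edgeR adjusted p 0.000204 and 0.00119) and Fgf1 by -3.40 and -3.54 (adjusted p 0.000228 and 0.000317). In the C5 control Pdgfb was 0.59 higher and Pdgfc at -0.60 against the parental line (adjusted p 0.00886 and 0.00693).

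The genes whose profile over the 9 libraries was most like that of Pgf were sought among 11968 tested genes whose mean reached 1 CPM. By Pearson correlation of log2 CPM they were Ikbkb (r = 0.995), Mtf1 (0.989), Ercc6 (0.986), Tigit (0.984) and Akap2 (0.983). These are descriptions without a p: the libraries of a group share their clone or line, and the profile of Pgf holds the difference from the parental line that was used to choose the family. Mtf1, a metal-responsive transcription factor known to act on Pgf, is also on the list of factors above, with 23.7 ± 0.0961, 22.2 ± 1.66 and 19.1 ± 1.59 CPM in the E4 knockout, the C5 control and the parental line. Tigit was at 27.2, 26.4 and 31.1 CPM, at 12.4, 39.0 and 17.5 CPM and at 11.6, 9.67 and 5.65 CPM, with control replicate 2 again the highest library. Ikbkb varied only from 73.2 to 98.2 CPM.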

How the data were processed

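RNA of 9 libraries in 3 groups of 3 was analysed. The deposited values are estimated counts per gene, all whole numbers, made by the authors with STAR 2.5.2 and RSEM 1.3.0 on GRCm38, per the submitters' processing notes, which also name DESeq2 1.10.1. Neither the annotation release nor the strand setting is given in the sources used here. The labels give no batch. Symbols and positions come from GENCODE M21 (GRCm38), which held 54809 of 54838 identifiers.

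Counts were tested with edgeR 4.0.16 in R 4.3.3 (glmQLFit and glmQLFTest) after filterByExpr (at least 10 counts, total of at least 15) and scaling by TMM, all 9 libraries in 1 fit with the group as only term. The filter kept 13153 genes. Adjusted p-values are Benjamini-Hochberg over them, and called means under 0.05. Values of SE are those of the log2 fold change. The script was tested on simulated data. Alternatives were DESeq2 1.42.0 size factors or total counts, DESeq2 or limma 3.58.1 voom as the test, no low-count filter, a filter at a mean of 5 CPM, the replicate number as a block, only the groups compared, a size limit of 1 on the log2 fold change, and each library left out. No libraries agreed within sampling noise: the lowest chi-square per gene within a group was 6.10.

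The members and lists were chosen with earlier results of these data known. Named are all 8 members, Vegfd, Flt4 and Zdhhc20, the 5 tested genes on either side of Pgf (as examples, the nearest), the 5 genes most correlated with it, and, per list and comparison, up to 2 called genes with the largest change and a mean of at least 1 CPM.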

Additional observations from a re-analysis of the deposited data

How the results depend on the processing

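Of 354 recomputed values of members, 308 were kept, 17 lost the call, 13 gained one and 16 changed sign. Kept means the same direction and the same side of the threshold. The values of Pgf against the parental line, used to choose the family, have no threshold and are all among the 308. For them kept means the same direction and a shift below the SD within groups. The sign changes were all of values near 0 that were never called. For Vegfb they were -0.0039 between the clones (filter at a mean of 5 CPM) and, in the E4 knockout against the parental line, -0.0139 (total counts), -0.0139 (filter at a mean of 5 CPM) and -0.00088 (voom). With 1 library left out Vegfb ranged from -0.10 to 0.10 between the clones, from -0.0284 to 0.0409 in the E4 knockout and from -0.10 to 0.10 in the C5 control against the parental line. Against the parental line, Nrp1 in the E4 knockout was 0.00018 without a filter and -0.13 to 0.0849 with 1 library left out, and Nrp2 there was -0.0334 to 0.21. Genes called numbered 5643 between the clones, 1843 of them with a size limit of 1 on the log2 fold change, 4131 in the E4 knockout against the parental line (1392 at that size, 6840 in the fit of those groups alone, 2515 to 5693 with 1 library left out) and 2814 in the C5 control against the parental line (851, 1525 and 1472 to 4102). Members called in the E4 knockout against the parental line were 2, but 1 with a filter at a mean of 5 CPM, 1 at that fold size and 1 to 3 with 1 library left out. In the C5 control they were 2, but 4 without a filter, 4 with DESeq2, 1 at that fold size and 1 to 3 with 1 library left out. The cause was not tested. The labels number replicates 1 to 3 in each group without saying that a number is shared. Deviations of same-numbered libraries correlated at -0.13 to 0.21. This shows no clear pairing, but with 3 libraries a group it cannot exclude one. With the replicate block, 5528, 3941 and 2492 genes and 4, 2 and 3 members were called in the 3 comparisons, the added member being Vegfc in the C5 control against the parental line (adjusted p 0.0382). Depth limits Kdr, at most 7 counts in a library.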
